A study of Mus musculus with 8 samples.

Results

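After 12 h of human GM-CSF, mouse T cells carrying the Ser585Gly form of the receptor chain beta-c differed from cells carrying the wild-type chain at 374 of 21779 array probes. Cells with the mutant receptor had more RNA for enzymes of cholesterol synthesis, for MHC class II chains and for galectin-3. They had less RNA for the G-protein regulator Rgs18, for the granule protease cathepsin G, for CD45 and for a cluster of granzymes. Of the probes called from the 12 h arrays alone, 40.9% were called in the same direction from the arrays of factor-deprived cells at 0 h. The comparison rests on 2 of the 8 arrays of the series, which hybridised mutant and wild-type RNA of the 12 h cells together, 1 in each dye orientation. All genes on those arrays were considered, and no gene was chosen by its values to define the comparison.

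The cells were CTL-EN, a mouse T cell line, made to express wild-type beta-c or beta-c Ser585Gly. Both were kept for 12 h without growth factor in RPMI medium with 0.5% serum (labelled CS), which is the 0 h state, and were then stimulated with 50 ng/mL of human GM-CSF, also for 12 h. Total RNA was labelled by reverse transcription with Cy5 and Cy3 and hybridised in pairs to spotted oligonucleotide arrays. The 8 arrays form a square of 4 comparisons (mutant against wild type at 0 h and at 12 h, and 12 h against 0 h in each line), each in 2 dye orientations. The labels name neither the promoter that drives the receptor nor how many clones make up each line. No separate cultures are named, so an array pair may repeat the same RNA, and p-values measure the spread between hybridisations, which may be technical.

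GM-CSF signals through a ligand-specific alpha chain and the common beta chain, beta-c, which the IL-3 and IL-5 receptors share. Binding brings JAK2 together with tyrosines of beta-c, and STAT5, the ERK pathway and PI 3-kinase follow. Serine 585 of beta-c, when phosphorylated, binds 14-3-3 proteins and is known for linking the receptor to PI 3-kinase and cell survival. Glycine cannot be phosphorylated. STAT5 targets include Pim1, Cish and Bcl2l1, whose products are a survival kinase, a feedback inhibitor of the SOCS family and an anti-apoptotic Bcl-2 protein. These are examples, and their values do not stand for STAT5 targets as a set.

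Values are log2 ratios of mutant over wild type, so 1 is a 2-fold higher and -1 a 2-fold lower RNA level in Ser585Gly cells. One limma model was fitted to all 8 arrays, with dye, time, mutation and the interaction of the last pair as its terms. A probe was called when its Benjamini-Hochberg adjusted p over all 21779 probes was under 0.05. Of these probes, 200 were higher in the mutant (0.918%) and 174 lower (0.799%). When the 2 arrays of each pair were first averaged into 1 value, which treats a dye swap as a technical repeat, 81 probes were higher and 74 lower. That fit has 1 residual degree of freedom, so a call lost in it does not show that the difference is unstable. Counted by gene, with the brightest probe standing for each of 15096 genes, 163 were higher (1.08%) and 133 lower (0.881%). With averaged pairs 67 genes were higher (0.444%) and 54 lower (0.358%). Among called probes the median absolute log2 ratio was 0.76, and 107 probes differed at least 2-fold, 59 of them higher and 48 lower. The median over all probes was -0.01.

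Most readings beyond 2-fold on 1 of the 12 h arrays did not repeat on the other. Over all probes, the ratios of the 2 dye orientations correlated at r = 0.219, and at 0.477 over the 10891 brighter probes. The same figures for the time comparisons were 0.515 and 0.509 over all probes, and 0.124 for mutant against wild type at 0 h. Beyond 2-fold in 1 direction on both 12 h arrays were 82 probes. A further 270 probes passed 2-fold on the second array without reaching a log2 ratio of 0.5 in that direction on the first, and 67 did so the other way round. Of these, 2 and 8 were called. Calls depended on the 12 h arrays: 68 probes were called without the first of them and 80 without the second. The 6 other arrays alone, which reach the 12 h difference only through 0 h, called 0 in limma. There 1027 of 21779 probes had an unadjusted p under 0.05.

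**Figure D1:**
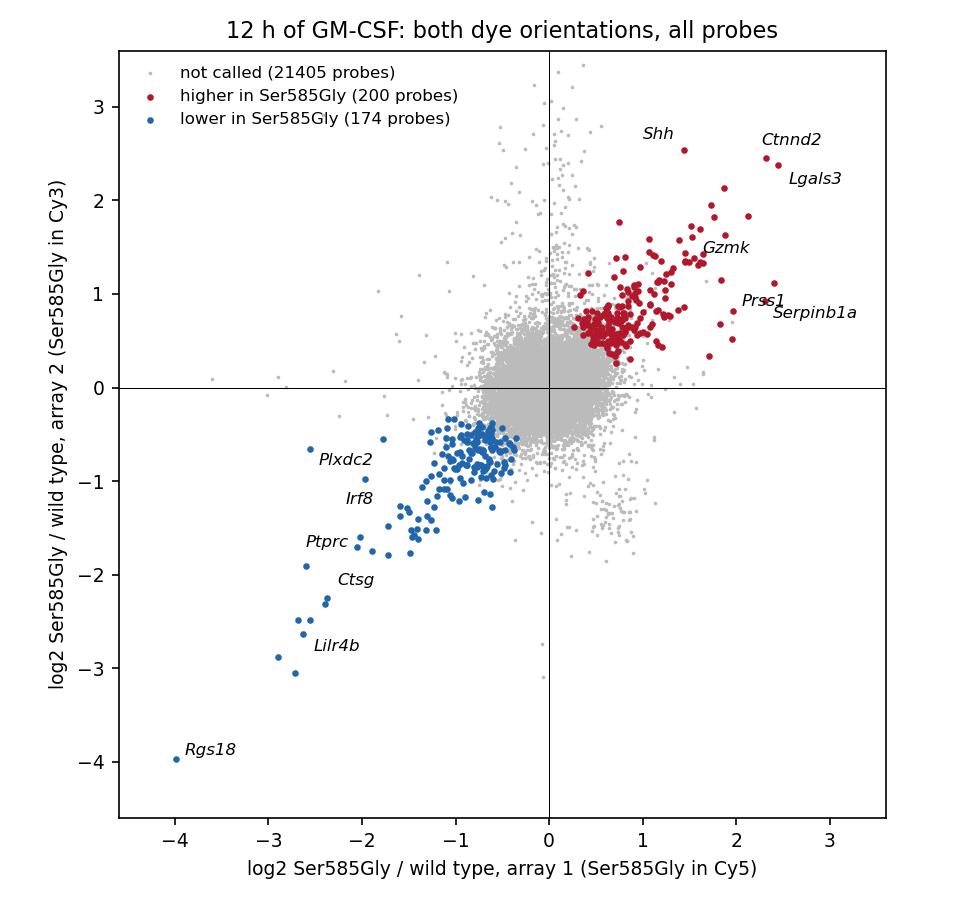
Log2 ratio of Ser585Gly over wild type at 12 h on array 1 (x axis, mutant RNA in Cy5) against array 2 (y axis, mutant RNA in Cy3, sign turned), 1 point per probe. The 200 probes called higher lie in the upper right and the 174 called lower in the lower left, while probes that are far from 0 on 1 array only are mostly grey.

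The genes with the highest ratios encode proteins of quite different kinds. Ctnnd2, delta-catenin, which binds cadherins at cell junctions, stood at 2.32 and 2.45 on the 2 arrays. The fit over 8 arrays gave 2.41 ± 0.11 (SE), a 5.3-fold difference with an adjusted p of 0.000201. Lgals3, the sugar-binding lectin galectin-3, stood at 2.45 and 2.38, with a fitted 2.20 ± 0.16 (SE) and an adjusted p of 0.000569. Both genes were high on both arrays. Itgae, the alpha chain of the integrin CD103 that binds E-cadherin, read 1.61 and 1.69 on a dim probe (brightness percentile 20). It was fitted at 1.76 ± 0.16 (SE) (adjusted p 0.00156). Its partner chain Itgb7 was higher by 0.76 ± 0.10 (SE) (adjusted p 0.0118, and 0.0796 with averaged pairs). Gzmk, granzyme K, read 1.55 and 1.39, and the chemokine gene Ccl11, eotaxin, read 1.46 and 1.44. For both genes the 2 readings were close to each other.

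Signalling and stress genes were also among the 15 highest. Shh, the secreted morphogen sonic hedgehog, read 1.45 and 2.54 and was fitted at 1.86 ± 0.18 (SE). Dok2, an adaptor that dampens tyrosine kinase signalling, read 1.65 and 1.42 (fit 1.44 ± 0.13 (SE)). Nfe2l2, the NRF2 factor of the oxidative stress response, read 1.39 and 1.57 (fit 1.44 ± 0.13 (SE)). Shroom3, an actin-binding protein that shapes epithelial cells, read 1.50 and 1.34. The remaining genes of the 15 were B4galnt2, a glycosyltransferase, at 1.81, Tomm20l, a paralogue of a mitochondrial import receptor, at 1.77, Cd55b, a complement regulator, at 1.65, Prss1, a trypsinogen, at 1.54, Lrguk at 1.51 and Serpinb1a, an inhibitor of granule proteases, at 1.86. Serpinb1a read 2.31 and 0.93, and its call was lost without the first 12 h array (adjusted p 0.235), without the second 0 h array and without the first time array of mutant cells. Tomm20l and Prss1 lost their calls without the first 12 h array (adjusted p 0.0961 and 0.104), and Lrguk without either of the pair, each left out in turn (0.118 and 0.0961).

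The gene furthest down was Rgs18, whose product switches off G-protein signalling and is best known from platelets and myeloid cells. It read -3.99 and -3.98 and was fitted at -3.70 ± 0.24 (SE) with an adjusted p of 0.000434. In mutant cells its signal lay under the level of empty wells on both arrays (the 95th percentile of 244 wells), so the difference was at least 11.5-fold. Its normalised single-channel log2 level averaged 11.52 in wild-type and 7.53 in mutant cells. Lilr4b and Lilrb4a, leukocyte immunoglobulin-like receptors whose sequences are close enough to share signal between probes, read -2.63 and -2.64 and -2.55 and -2.49. Lilrb4a lost its call without either 12 h array (adjusted p 0.0532 and 0.0576).

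Ctsg, the granule protease cathepsin G, read -2.37 and -2.25 and was fitted at -2.34 ± 0.17 (SE) (adjusted p 0.000548). Ptprc, the phosphatase CD45 that sets the activity of Src-family kinases in T cells, read -1.89 and -1.75 and was fitted at -1.73 ± 0.12 (SE). Irf8, a transcription factor of myeloid and B cell development, read -1.60 and -1.38 and was fitted at -1.47 ± 0.09 (SE). Both were low in the mutant on both arrays, with adjusted p values of 0.000548 and 0.000434. Chit1, the macrophage chitinase chitotriosidase, stood at -1.71, the scaffold gene Mpp6 at -1.71, and the small non-coding Y RNA gene Rny1 at -1.49. Wfdc15a stood at -2.39, Rex2 at -1.83, Tcam1 at -1.55 and Wfikkn2 at -1.49. Plxdc2 was the least even of the group, at -2.55 and -0.65, and lost its call in 6 of the 8 fits that leave out 1 array, among them the one without the first 12 h array (adjusted p 0.331). Tcam1 lost its call without the second 12 h array (adjusted p 0.0686). Over the 15 highest and 15 lowest genes together, 23 were called in all 8 such fits and all 30 kept their sign in them.

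**Figure D2:**
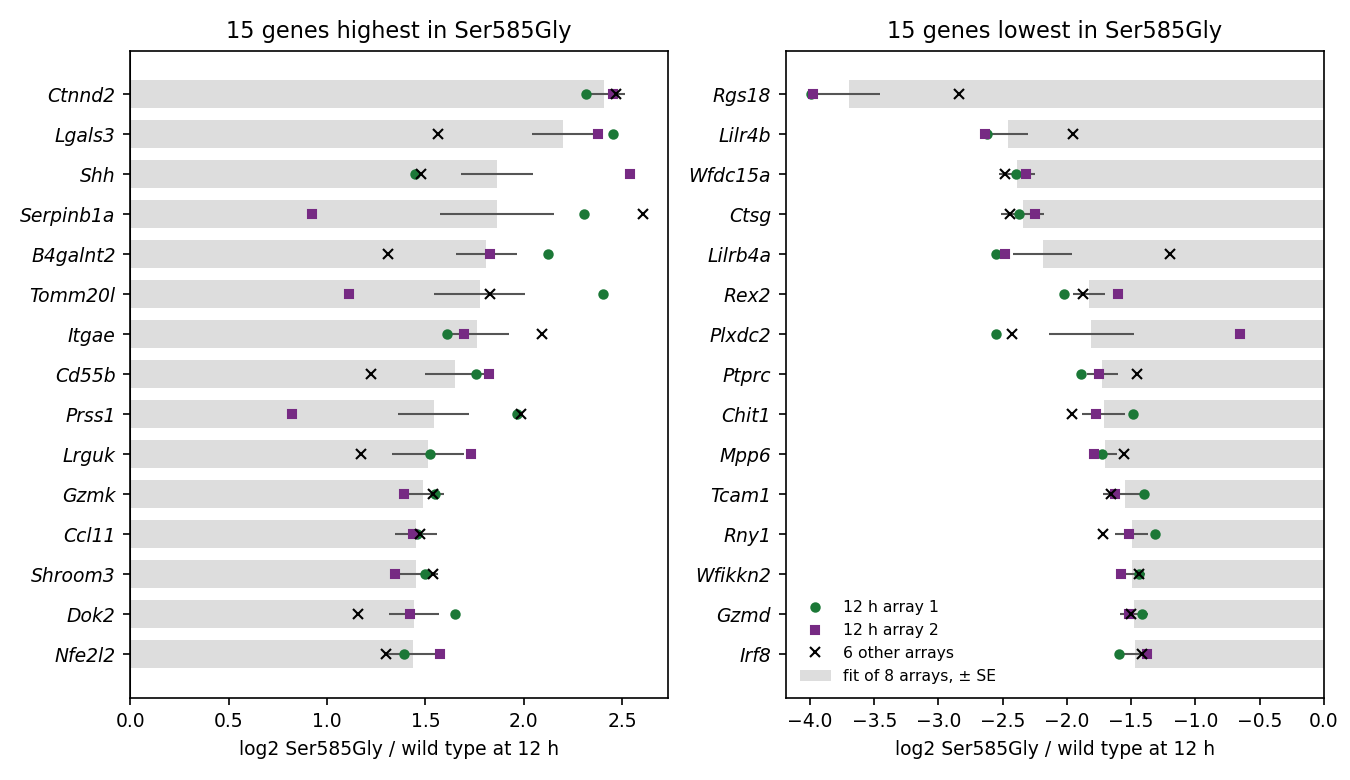
Log2 ratio of Ser585Gly over wild type at 12 h for the 15 highest and 15 lowest genes called in both fits (bars with SE, fit of 8 arrays), with the 2 direct arrays and the estimate from the 6 other arrays as points. The 3 points lie close together for genes such as Gzmk and Gzmd. Serpinb1a, Prss1, Plxdc2, Shh and Tomm20l are far from even between the 2 direct arrays. For some genes the 6 other arrays gave a smaller difference than both direct arrays, as for Lilrb4a (-1.20), Rgs18 (-2.84) and Lgals3 (1.56).

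Several genes had probes that did not read alike. Of 4 probes for transferrin, Trf, the brightest read -0.49 (adjusted p 0.129), while the other 3, all dimmer, were called at -2.91, -2.61 and -2.69. Of 3 probes for Cd55, decay-accelerating factor of the complement system, the brightest read 1.64 and 0.16 on the 2 arrays and was not called (1.01, adjusted p 0.071). The other two were called at 1.90 and 1.39. The dimmer of 2 Cd55b probes read -0.42 with an adjusted p of 0.671, and Cd55 and Cd55b are close paralogues whose probes may share signal. Trf and Cd55 do not meet the rule by which genes were named and were picked after their values were seen.

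Genes were then read by lists of known function or cell type, 40 of pathways and 8 of markers. Lists and members were chosen with earlier results of these data known. A list's count set beside the share of all genes is therefore a description and not a test. Each list's count of called members stands beside 1.08% of all genes called higher, 0.881% lower and 1.96% in either direction. In limma, 2840 of all 21779 probes had an unadjusted p under 0.05 at 12 h, and 1527 for the interaction. List counts at an unadjusted p under 0.05 are to be read beside these. Over all lists 75 genes were called, of which 31 were called with averaged pairs, 17 without the first 12 h array and 19 without the second. The 15 list members called whichever array was left out were Lgals3, Itgae, Gzmk, Cdkn2a, H2-Ab1, H2-Eb1 and H2-DMb2, which were higher, and Rgs18, Ctsg, Ptprc, Irf8, Id2, Gzmd, Gzme and Gzmg, which were lower.

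Cholesterol and fatty acid synthesis was the list with the most calls. Of its 31 measured genes, 15 were higher in Ser585Gly cells and 0 lower, against 1.08% of all genes higher. The list median was 0.54, against -0.01 over all genes, and 27 of the 31 genes were above 0 on both 12 h arrays, against 27.8% of all genes. The differences were moderate, between 0.54 and 1.07 for the called members.

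Of the 15 called genes, 11 encode enzymes at steps from mevalonate to cholesterol. Pmvk and Mvd, which turn phosphorylated mevalonate into isopentenyl pyrophosphate, stood at 0.95 and 0.73. Idi1, the isomerase that makes dimethylallyl pyrophosphate, read 1.10 and 0.68 and was fitted at 1.07 ± 0.20 (SE) (adjusted p 0.0424). Fdps and Fdft1, which build farnesyl pyrophosphate and squalene, stood at 0.72 and 0.75. Sqle, squalene epoxidase, read 0.79 and 0.79 (fit 0.82 ± 0.09 (SE), adjusted p 0.00477). Lss, lanosterol synthase, read 0.97 and 0.58. Cyp51, lanosterol demethylase, read 0.78 and 0.99 (fit 0.88 ± 0.09 (SE), adjusted p 0.00322). Further down, Msmo1 stood at 0.77, Ebp at 0.61 and Dhcr7, which makes cholesterol from its direct precursor, at 0.54. The sterol carrier gene Stard4 stood at 0.68.

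On the fatty acid side, Fasn, fatty acid synthase, stood at 0.64 and the elongase gene Elovl6 at 0.74, both called. Srebf2, the transcription factor that drives sterol genes, read 0.61 and 0.58 and was called at 0.63 ± 0.11 (SE) (adjusted p 0.0265). Its relative Srebf1 read 0.21 and 0.41 and was not called (adjusted p 0.426). Acly, which supplies acetyl-CoA, missed the threshold at 0.56 (adjusted p 0.0503). Scd1, Acaca, Insig1, Mvk and Sc5d read between 0.27 and 0.40 in the fit without being called. The 1 gene below 0 in the fit was the malic enzyme gene Me1, at -0.25 with an adjusted p of 0.461.

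The number of called members depended on the arrays. With averaged pairs 2 members were called (Cyp51, adjusted p 0.0368, and Sqle, 0.0475), and the 2 arrays of 12 h alone called 3. Without the first 12 h array 2 were called and without the second 0, while leaving out a time array left 6 to 9 and leaving out a 0 h array 17 or 12. Over these 8 fits the list median stayed between 0.48 and 0.60, and the 6 other arrays alone gave 0.52.

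The 150 bases before the transcription start of 3 called members, from RefSeq for GRCm38.p6, are shown because these members moved together. They are the 3 called members with the highest ratios that have an entry. Capitals mark CCAAT or its reverse complement ATTGG, the core of the site bound by NF-Y, a factor known to work beside SREBP at sterol gene promoters.
Idi1 (chr13:8885456-8885605, forward strand): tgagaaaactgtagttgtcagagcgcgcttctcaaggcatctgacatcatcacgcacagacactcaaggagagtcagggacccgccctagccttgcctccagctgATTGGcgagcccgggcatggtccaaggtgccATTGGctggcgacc
Pmvk (chr3:89454391-89454540, forward strand): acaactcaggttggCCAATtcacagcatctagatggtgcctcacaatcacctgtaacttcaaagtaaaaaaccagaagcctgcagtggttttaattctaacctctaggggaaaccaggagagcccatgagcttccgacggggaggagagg
Cyp51 (chr5:4104698-4104847, reverse strand): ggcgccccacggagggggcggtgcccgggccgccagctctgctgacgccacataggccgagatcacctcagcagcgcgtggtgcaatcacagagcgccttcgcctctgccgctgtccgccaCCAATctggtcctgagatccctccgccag
In windows from 250 bases before to 50 after the start, 22 of 32 windows of the list's measured genes (68.8%) held CCAAT on either strand, as did 10 of 14 windows of the called members. Over all 32851 windows the share was 37.4%. Windows were found for 24 of the 31 genes. The Idi1 window held 2 such matches, 45 and 14 bases before the start. TCACNCCAC on either strand, a sterol response element, was in 0 of the 32 windows and in 1.24% of all windows, which says only that these letters are not in these windows.

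MHC class II genes, whose products display peptides to helper T cells, also had calls in 1 direction. Of 15 measured genes, 5 were higher and 0 lower, with a list median of 0.43, and the same 5 were called with averaged pairs. These 5 were also called higher at 0 h, H2-Ab1 at 1.64, H2-Aa and Cd74 at 1.41, H2-Eb1 at 1.35 and H2-DMb2 at 1.19. Another member was called lower at 0 h, where the list median was 0.19. From the 6 other arrays alone the 12 h median was 0.19. H2-Ab1, a beta chain, read 1.20 and 1.35 and was fitted at 1.35 ± 0.10 (SE) (adjusted p 0.000657). H2-Aa, the matching alpha chain, read 1.59 and 1.30 (fit 1.33 ± 0.14 (SE)), and both of its probes were called. H2-Eb1, the beta chain of the other class II molecule, read 1.13 and 1.40 (fit 1.20 ± 0.12 (SE)). Each was more than 2-fold higher in the fit.

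Of the genes that load class II molecules, the invariant chain gene Cd74 stood at 1.01 ± 0.11 (SE) and the peptide exchange gene H2-DMb2 at 1.01 ± 0.10 (SE). H2-DMb1, a close paralogue of H2-DMb2, read 0.78 and 0.59 and was not called (adjusted p 0.149). Ciita, the master regulator of class II transcription, read 0.79 and 0.18 and was not called (fit 0.21 ± 0.30 (SE), adjusted p 0.83). The costimulators Cd80 and Cd86 stood at -0.14 and -0.14 with no call. H2-Aa lost its call without either 12 h array (adjusted p 0.0604 and 0.0546), as did Cd74 (0.054 and 0.0666), so that 3 calls were left each time. The MHC class I list had 0 calls of 15 in limma (1 at an unadjusted p under 0.05), with a median of 0.11.

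Start regions of 3 class II genes are given in the same way. The Y box of class II promoters is an ATTGG motif, marked here in capitals on either strand.
H2-Aa (chr17:34287824-34287973, reverse strand): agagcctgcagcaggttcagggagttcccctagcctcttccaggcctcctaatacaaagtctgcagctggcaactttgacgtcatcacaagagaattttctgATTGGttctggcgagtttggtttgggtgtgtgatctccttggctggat
H2-Eb1 (chr17:34305717-34305866, forward strand): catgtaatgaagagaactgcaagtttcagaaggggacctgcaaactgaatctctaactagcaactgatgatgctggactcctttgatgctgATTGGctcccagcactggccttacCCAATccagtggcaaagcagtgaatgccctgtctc
H2-DMb2 (chr17:34145099-34145248, forward strand): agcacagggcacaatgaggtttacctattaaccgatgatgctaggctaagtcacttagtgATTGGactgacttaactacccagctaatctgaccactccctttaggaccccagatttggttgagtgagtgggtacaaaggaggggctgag
The matches lay 48 bases before the start in H2-Aa, 59 and 35 in H2-Eb1 and 90 in H2-DMb2. Of 12 windows found for 11 of the 15 genes, 8 held the motif (66.7%), beside 37.4% of all windows.

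**Figure D3:**
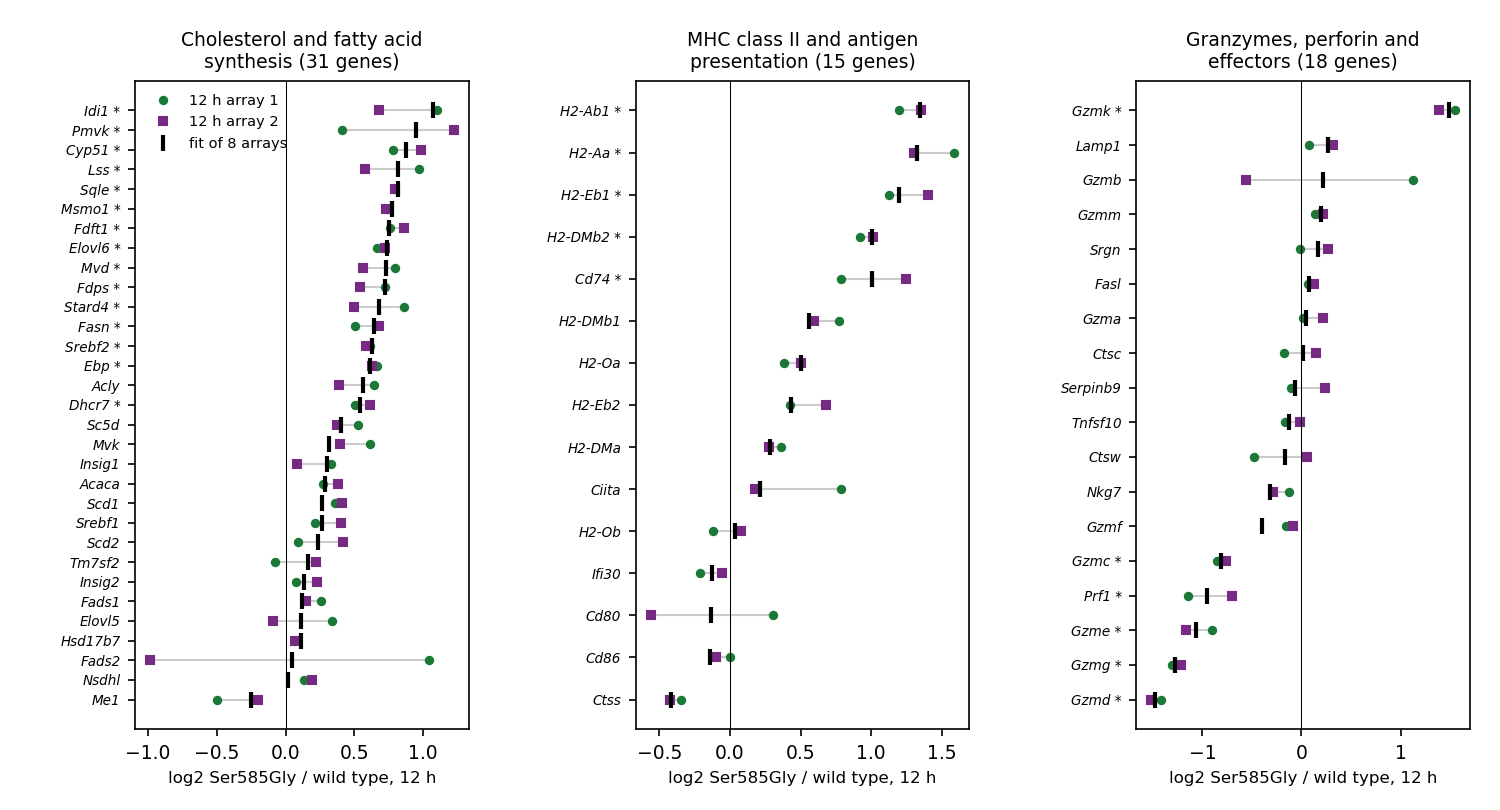
Log2 ratio of Ser585Gly over wild type at 12 h for every measured member of 3 lists, on array 1, on array 2 and in the fit of 8 arrays, with asterisks for called genes. Cholesterol genes lie mostly right of 0 on both arrays, class II chains form the top of the second panel, and the granzyme list splits between Gzmk on the right and Gzmc, Gzmd, Gzme, Gzmg and Prf1 on the left.

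Killer-cell effector genes split. Of 18 measured granzyme, perforin and effector genes, 5 were lower in the mutant and 1 higher, with a median of -0.10, and all 6 calls held with averaged pairs. Gzmd read -1.42 and -1.51 (fit -1.47 ± 0.11 (SE), adjusted p 0.000608), Gzmg was fitted at -1.28 ± 0.10 (SE) and Gzme at -1.06 ± 0.10 (SE). Gzmc stood at -0.81 ± 0.13 (SE) (adjusted p 0.0191). These genes are neighbours in 1 cluster and their sequences are so close that probes may share signal. Prf1, perforin, which opens the target membrane for granzymes, read -1.15 and -0.71 (fit -0.95 ± 0.13 (SE), adjusted p 0.0121). Without either 12 h array Prf1 and Gzmc were no longer called, and Gzmc also lost its call without 3 of the time arrays.

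The granzymes best known from killer T cells did not follow that cluster. Gzma read 0.01 and 0.22 and was fitted at 0.04 ± 0.13 (SE) (adjusted p 0.931). Gzmb read 1.13 and -0.56, so its 2 arrays pointed in opposite directions (adjusted p 0.71). Gzmk was the 1 gene of the list that was higher, at 1.49 ± 0.11 (SE).

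Among 26 transcription factors of T cell fate, 0 were higher and 2 lower, beside 1.08% and 0.881% of all genes. Id2, an inhibitor of E proteins needed by effector T cells, read -1.31 and -1.37 and was called at -1.34 ± 0.09 (SE) (adjusted p 0.000447). Tbx21, T-bet, the factor behind interferon-gamma and perforin expression, read -1.06 and -0.79 and was called at -0.93 ± 0.10 (SE) (adjusted p 0.00322, and 0.063 without the first 12 h array). Of 8 interferon regulatory factors, Irf4 was higher at 1.16 ± 0.14 (SE) (adjusted p 0.00514) and Irf8 lower, as above. Irf4, which T cells induce on activation, lost its call without either 12 h array (0.0953 and 0.0681). The 29 interferon-stimulated genes had 0 calls in limma (5 at an unadjusted p under 0.05) and a median of 0.03.

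The receptors that T cells use to receive signals differed at a few genes. Among 32 cytokine receptor chains 3 were lower: Il15ra, which presents IL-15, at -0.996 ± 0.16 (SE), and the interferon receptor chains Ifnar1 at -0.72 ± 0.11 (SE) and Ifngr1 at -0.55 ± 0.10 (SE). With averaged pairs Il15ra alone was called (adjusted p 0.0409), and without either 12 h array none of the 3 was. Of 35 chemokine and chemokine receptor genes, 2 were higher and 2 lower. Ccr4 read 1.45 and 1.35 (fit 1.42 ± 0.14 (SE)) and Ccr7, which guides cells to lymph nodes, was fitted at 0.85 ± 0.10 (SE). Ccr4 lost its call without the first 12 h array (adjusted p 0.0532) and Ccr7 without either (0.0961 and 0.107). Ccr2 stood at -0.83 ± 0.12 (SE) and Cxcr5 at -0.59 ± 0.11 (SE), neither called with averaged pairs (0.0559 and 0.127).

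Of 30 genes of the T cell receptor complex and its first signalling steps, Ptprc was lower and the adhesion molecule Cd48 and the kinase Txk were higher, at 0.62 ± 0.11 (SE) and 0.56 ± 0.10 (SE). Neither Cd48 nor Txk was called with averaged pairs (0.103 and 0.127). Among 24 S100, annexin and galectin genes 4 were higher, with a list median of 0.22. Besides Lgals3 these were S100a4 at 0.87 ± 0.10 (SE), Anxa2 at 0.78 ± 0.13 (SE) and S100a13 at 0.58 ± 0.11 (SE). Anxa2 was uneven, at 1.20 and 0.44, and with averaged pairs Lgals3 and S100a4 were called (0.0103 and 0.0417).

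Genes of the GM-CSF survival pathway followed. Of 17 receptor and survival genes looked at by name, 4 were lower in Ser585Gly cells after 12 h of GM-CSF and 0 higher. Over all genes the shares were 0.881% lower and 1.08% higher. Pim1, the survival kinase, read -0.93 and -0.73 and was called at -0.85 ± 0.12 (SE) (adjusted p 0.0121, and 0.0409 with averaged pairs). Myc read -0.98 and -0.70 (fit -0.77 ± 0.12 (SE), adjusted p 0.0176). Cish read -0.91 and -0.56 (fit -0.70 ± 0.11 (SE), adjusted p 0.0219). Bcl2l1, which encodes Bcl-xL, read -0.65 and -0.46 (fit -0.60 ± 0.10 (SE), adjusted p 0.0265). All 4 genes were low in the mutant on both arrays.

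With averaged pairs Pim1 was the 1 gene of these still called, while Myc reached 0.0688, Cish 0.0789 and Bcl2l1 0.12. Without either 12 h array none of the 4 was called, Pim1 reaching 0.113 and 0.164. Bcl2l1 also missed the threshold in 5 of the 6 fits that leave out another array, Cish in 3 of them and Myc in 1. The 4 genes were lower in the mutant at 0 h as well, by -0.60 for Pim1, -0.70 for Cish, -0.51 for Bcl2l1 and -1.18 for Myc. The interaction test passed for none of them (adjusted p 0.757, 0.997, 0.853 and 0.627), which does not show that the differences at 0 h and 12 h were equal.

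The direct time arrays give the size of the GM-CSF response itself for these genes. Cish stood 2.03 above 0 h in wild-type and 2.10 in mutant cells, and Pim1 0.98 and 0.68. Bcl2l1 stood at 1.18 and 1.01. For Myc the rise was larger in mutant cells, 0.20 in wild-type and 0.74 in mutant cells, as it was for Socs2 (0.31 and 0.62). Pim2, another Pim kinase, read 2.75 and 2.14, and its 12 h ratio of mutant to wild type was -0.39 ± 0.11 (SE) (adjusted p 0.17).

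The other survival genes were not called. Bcl2 read -0.47 and -0.19 (adjusted p 0.341), Mcl1 -0.06 and 0.09 and the pro-apoptotic Bcl2l11, Bim, -0.13 and -0.04. Socs2 stood at -0.21, the cyclin gene Ccnd2 at -0.04, Egr1 at -0.17 and Il2ra at -0.22. That Il2ra value is from the brightest of its 4 probes, which read -0.41 and 0.01. A dimmer Il2ra probe was called lower at -0.85 (adjusted p 0.0113, and 0.0466 with averaged pairs). The remaining Il2ra probes stood at -0.60 and -0.82 without a call (0.211 and 0.0877). The mouse receptor chains Csf2ra and Csf2rb2 stood at -0.10 and 0.05, the latter on a dim probe. Of the Bcl-2 family as a whole, 1 of 19 genes was called, Bcl2l1.

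Genes for the partners of phosphorylated serine 585 were read beside the 1.96% of all genes called in either direction, from which lists this short cannot be told apart. None of 7 genes for 14-3-3 proteins was called in limma or passed an unadjusted p of 0.05, the fitted ratios lying between -0.35 for Ywhae and 0.12 for Ywhah. Of 26 PI 3-kinase, Akt and mTOR genes 1 was called, Pik3ip1, an inhibitor of PI 3-kinase, which read 1.07 and 0.65 (fit 0.89 ± 0.10 (SE), adjusted p 0.00386). Its call was lost without the first 12 h array (0.0791). The direct time arrays for Pik3ip1 read -2.25 in wild-type and -1.80 in mutant cells, below 0 in both lines. The regulatory subunit gene Pik3r1 stood at 0.38 ± 0.09 (SE) (adjusted p 0.104) and Akt1 at -0.12. Of 33 FoxO and quiescence genes, Pik3ip1 was higher and Txnip, an inhibitor of glucose uptake, lower at -0.71 ± 0.12 (SE) (0.0869 with averaged pairs).

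The G1, S phase and mitosis lists had 1 call each, beside 1.96% of all genes called in either direction. The list of Pim kinases, the Myc network and growth drivers had 2 of 18 genes lower, Pim1 and Myc, as above. Cdkn2a, the CDK inhibitor locus of p16 and p19, was higher, at 1.25 and 1.21 on the 2 arrays (fit 1.32 ± 0.11 (SE), adjusted p 0.0013), the 1 call among 24 G1 cyclin and CDK inhibitor genes. Mcm2, part of the replicative helicase, was the 1 call of 44 S phase genes, at -0.56 ± 0.11 (SE), and Kif23 that of 42 mitotic genes, at -0.48 ± 0.09 (SE). Neither was called with averaged pairs (0.175 and 0.187). Dusp6, the phosphatase that ends ERK signalling, read -1.09 and -0.43 and was called at -0.69 ± 0.11 (SE) (0.0968 with averaged pairs).

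Ribosomal protein genes lay slightly below 0 as a list, with a fitted median of -0.15 beside -0.01 over all genes. On the direct 12 h arrays the list medians were -0.11 and -0.05, and 36 of 61 genes were below 0 on both. The share of all genes below 0 on both arrays was not counted. These genes are among the brightest (median percentile 99.6), and 1 was called, Rpl7a at -0.80 ± 0.12 (SE). Ribosome biogenesis genes had 0 calls of 48 in limma (6 at an unadjusted p under 0.05) and a median of -0.11. Of 40 lysosome and autophagy genes 3 were higher, among them Grn, progranulin, at 0.93 ± 0.14 (SE). Tfrc, the transferrin receptor, was higher at 0.76 ± 0.09 (SE) (adjusted p 0.00713, and 0.0688 with averaged pairs). T cell cytokines, glycolysis genes and oxidative phosphorylation genes had 0 calls in limma, of 20, 33 and 54 genes. Of them, 6, 6 and 10 had an unadjusted p under 0.05, beside 2840 of all 21779 probes.

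**Figure D4:**
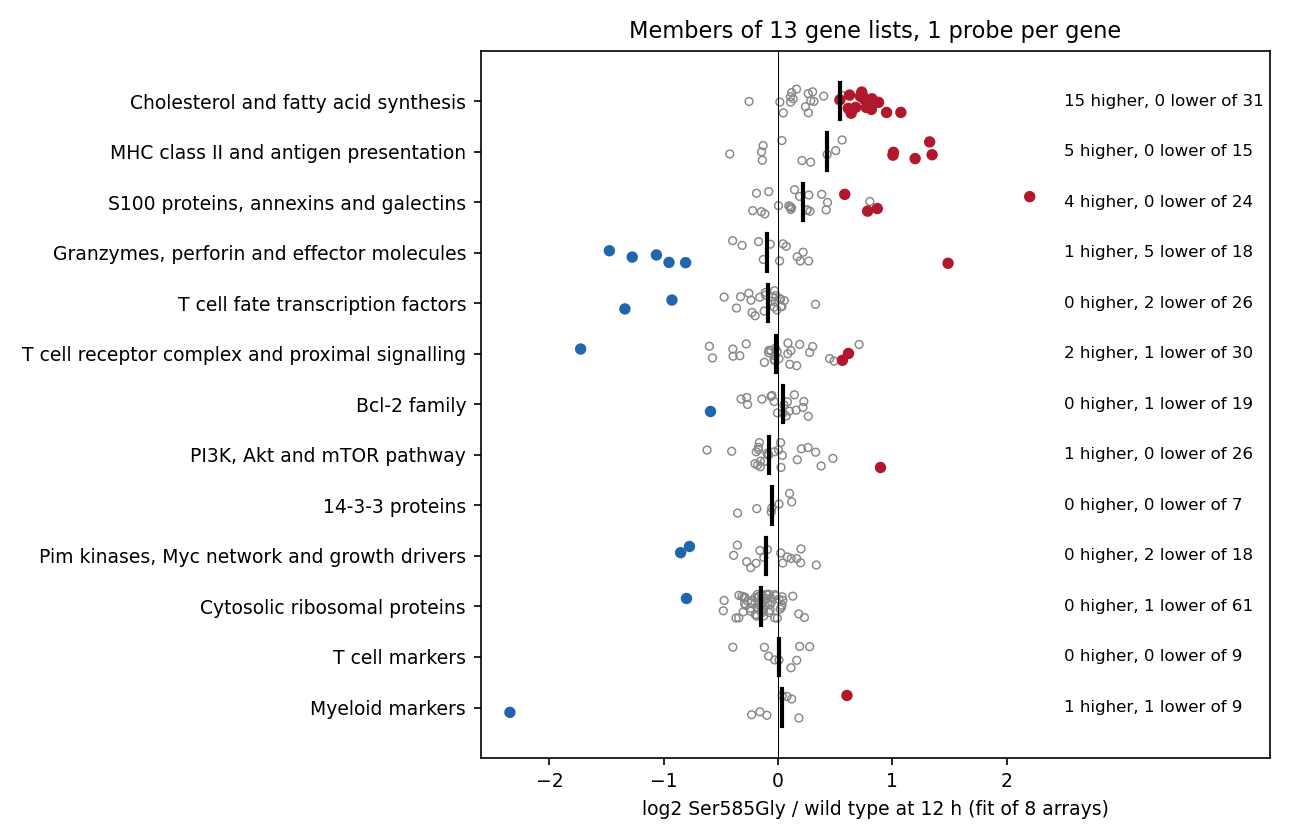
Log2 ratio of Ser585Gly over wild type at 12 h (fit of 8 arrays) for the members of 13 gene lists, 1 point per gene. Filled points are called genes (red higher, blue lower), open points are not called, and bars are list medians. The cholesterol and MHC class II lists have their medians at 0.54 and 0.43, and those of the other 11 lists lie between -0.15 and 0.22.

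Both lines read as T cells. Cd3e, Cd3d, Cd3g and Thy1 were in the top 3% of probes by brightness, and the median brightness percentile of the 9 T cell markers was 92.8. In limma 0 of the 9 were called (1 at an unadjusted p under 0.05), with a median ratio of 0.01. Of 9 myeloid markers, Ctsg was lower and Cd68 higher, and the summed signal of the list was 5673 and 7507 in mutant cells against 8714 and 11403 in wild-type cells. Ctsg carried that gap: without it the other 8 markers summed to 4924 and 6389 in mutant and 4831 and 6099 in wild-type cells, with a median ratio of 0.06. The defining myeloid markers Mpo, Itgam and Adgre1 were dim and not called. Of 5 dendritic cell markers Ccr7 was higher, while Itgax, Flt3, Zbtb46 and Xcr1 were not called. B cell, erythroid, mast cell, fibroblast and NK cell lists had 0 calls in limma, with 0 to 2 genes each at an unadjusted p under 0.05. The part of other cell types in the class II and granule gene results was not tested further. On these arrays a difference in RNA per cell and one in the share of cells that make it cannot be told apart.

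A large part of the 12 h differences had the same direction before GM-CSF. The 2 arrays of each time point can be compared directly, since they share no array. Taken alone, the 12 h pair called 171 probes (0.785%) and the 0 h pair 210 (0.964%). Of these, 70 were called in the same direction at both times, which is 40.9% of the 12 h list and 33.3% of the 0 h list, and 1 in opposite directions. Of the 171 probes called at 12 h, 165 had the same sign on the 0 h arrays, or 96.5%, beside 62.0% of all probes. Over all probes the pair means correlated at r = 0.424, and over the 10891 brighter probes at 0.502. This is a description across probes, which are not independent replicates.

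Side by side, many of the named genes had like values at both times. The 0 h and 12 h values below come from 1 fit and share its arrays. Wfdc15a stood at -2.41 at 0 h and -2.39 at 12 h, and Gzmk at 1.50 and 1.49. Lgals3 stood at 1.89 and 2.20, Mpp6 at -1.62 and -1.71, and H2-Ab1 at 1.64 and 1.35. Irf8 differed more before GM-CSF, -2.28 against -1.47, with an interaction that missed the threshold (adjusted p 0.0696). Shh (0.76, adjusted p 0.0571), Nfe2l2 (0.51, 0.0633), Lilrb4a (-0.61, 0.17) and Shroom3 (-0.18, 0.388) were not called at 0 h. Of these, Shroom3 alone passed the interaction test.

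The genes with the largest differences in deprived cells were also followed to 12 h. Esm1, a secreted proteoglycan, stood at 1.71 and then 1.05, and Cdkn2a at 1.64 and 1.32. Of the 16 such genes Xpnpep2, Ighm, Cdc42ep3 and Skida1 were not called at 12 h. Cdc42ep3 stood at -2.10 and -0.71, and Skida1 read -1.83 and 1.03 on the 2 arrays of 12 h, in opposite directions. Of the cholesterol list, 9 members were called higher at 0 h, with a median of 0.27 there and 0.54 at 12 h, and 0 of its members passed the interaction test in limma (6 at an unadjusted p under 0.05).

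The difference between the lines changed with time at 12 of 21779 probes (0.0551%), 6 in each direction. With averaged pairs 0 probes passed in limma (1509 at an unadjusted p under 0.05), so these 12 are named although they fall outside the naming rule, and were picked after their values were seen. Leaving out either 12 h array, the second time array of wild-type cells or the first of mutant cells also left 0, and the other 4 arrays left 3 to 5. Among the 30 named genes 3 were in this set. Rgs18 was fitted at -1.30 at 0 h and -3.70 at 12 h, and passed the interaction test (adjusted p 0.0362). Its signal in mutant cells at 12 h lay under the level of empty wells, so the size of this change is not resolved. Its direct time arrays read 1.95 in wild-type cells, while a change in mutant cells could not be read at that level. Ctnnd2 went from 0.87 to 2.41 (adjusted p 0.00692), with time ratios of 0.02 in wild-type and 1.60 in mutant cells. Shroom3 went from -0.18 to 1.45 (adjusted p 0.00692), with 0.30 and 1.99.

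Other genes of this set were called at 0 h and not at 12 h. Sat1, which acetylates polyamines for breakdown, stood at 1.38 at 0 h and 0.25 at 12 h (interaction adjusted p 0.0362). Its time ratio was -0.86 in wild-type and -1.92 in mutant cells. Xpnpep2, an aminopeptidase, went from 1.67 to 0.48, and Trim29 from 0.98 to -0.05. Tln2, talin 2, which links integrins to actin, went from -1.20 to 0.21. One of 9 probes for the immunoglobulin heavy chain gene Ighm went from -2.08 to -0.64.

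**Figure D5:**
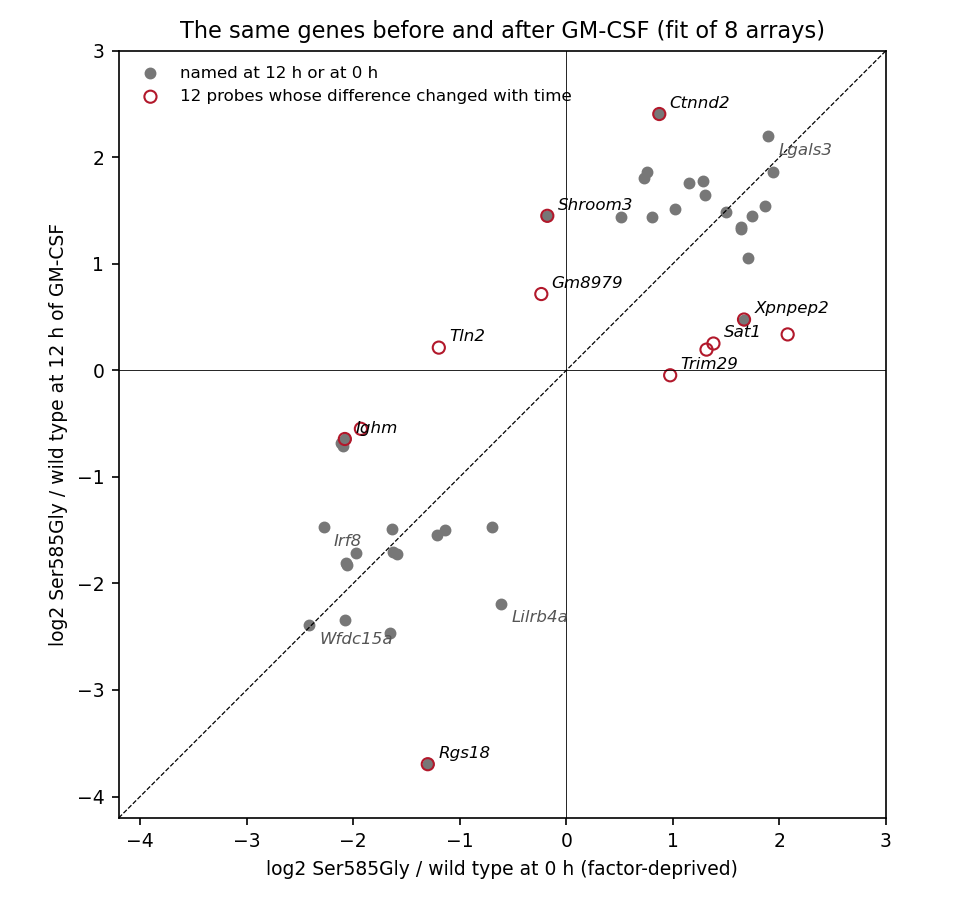
Log2 ratio of Ser585Gly over wild type at 12 h (y axis) against 0 h (x axis), both from the fit of 8 arrays, for genes named at either time. The dashed line marks equal differences, and red rings mark the 12 probes whose difference changed with time. Most genes lie in the lower left and upper right, with Rgs18 below the line and Ctnnd2 and Shroom3 above it.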

How the data were processed

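The deposited scanner tables give spot and local background intensity per dye on a linear scale, per the file headers. The deposited value table holds log2 ratios of Cy5 over Cy3 that the authors normalized, and limma is named in the submitters' processing notes with no steps. Aligned with the scanner ratios, its columns correlated at 0.655 to 0.936. Array median intensities were 631 to 946 in Cy5 and 795 to 1105 in Cy3.

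The deposited names follow a print order of 48 pins, while the spots follow 24. Names were moved to the recovered spot, and probes that could not be placed were left out. Of 244 empty wells, the median brightness percentile fell from 47.2 to 1.33, and ratios of probe pairs of 1 gene at 12 h correlated at 0.352 in place of 0.009. Of 21779 placed probes, 16644 had 1 symbol, 137 several and 4998 none. The annotation can be old, and 15972 symbols were updated by gene identifier.

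Intensities were corrected with normexp (offset 50), normalized by loess (span 0.3, control spots at weight 0), turned to mutant over wild type and fitted with limma 3.58.1 in R 4.3.3 on 8 arrays (4 residual degrees of freedom), with empirical Bayes and Benjamini-Hochberg adjustment, two-sided. The fits were tested on simulated data with 50 probes changed at each size. The main fit recovered 24% of 1.5-fold, 72% of 2-fold and 96% of 4-fold differences. The changed probes were given no difference at 0 h, unlike many called genes, and each probe's estimated spread was taken as its true one. These shares are therefore a rough guide to the main fit. The fit with averaged pairs recovered none, also of the largest, yet it called 155 probes in the real data. The simulation therefore does not describe how that fit behaved on the real arrays. The smallest measurable fold is limited by there being 2 arrays per comparison.

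Named were the 15 highest and 15 lowest genes called in both fits with 1 sign on both 12 h arrays (112 qualified), 17 receptor and survival genes, the 8 highest and 8 lowest genes of 0 h, and called members of 40 pathway and 8 marker lists. No gene met the same conditions for the interaction. Members and lists were chosen with earlier results of these data known. Some genes of the lists are not reported here.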

Additional observations from a re-analysis of the deposited data

Results flagged for a closer look

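The difference between Ser585Gly and wild-type cells was not the same at 12 h as at 0 h for 12 probes, by limma's interaction test over 8 arrays (adjusted p under 0.05 over 21779 probes). With the 2 arrays of each pair averaged, none of the 12 passed, the adjusted p values lying between 0.137 and 0.43. The change from 0 h to 12 h is given as the 12 h log2 ratio minus the 0 h log2 ratio.

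The change was -2.40 for Rgs18, -1.19 for Xpnpep2, -1.13 for Sat1 and -1.02 for Trim29. For Rgs18 the mutant signal at 12 h lay under the level of empty wells, so that value is not an exact size. It was 0.95 for Gm8979, 1.41 for Tln2, 1.43 for 1 of 9 Ighm probes, 1.53 for Ctnnd2 and 1.63 for Shroom3. Of 3 probes that pair with no single gene, it was -1.74, -1.12 and 1.38. Of these, Rgs18, Ctnnd2, Shroom3, Gm8979 and 1 probe with no single gene also differed between the lines at 12 h. Gm8979 stood at -0.23 at 0 h and 0.72 at 12 h.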

How the results depend on the processing

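The count of 374 probes at 12 h was 994 with print-tip loess, 2205 in the deposited value table (of 21648 probes), 736 with scaling between arrays, 1133 with the comparison as a random block (correlation -0.326), 155 with averaged pairs, 171 from the 12 h arrays alone and 0 from the 6 other arrays. Leaving out each array gave 68 to 627. It stayed within 1.5 times with plain subtraction, no background correction, median centring, no dye term, a trended prior and without dim probes. The share called higher lay between 45.6% and 58.6%.

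The count of 12 for the interaction was 20 with plain subtraction, 20 with no background correction, 49 with print-tip loess, 90 in the deposited table, 1 with scaling, 6 with no dye term, 0 with averaged pairs, 35 with the random block, 21 with a trended prior and 0 from the 6 other arrays, and 0 to 5 when each array was left out. The cause was not tested. Each ratio already pairs 2 RNAs on 1 array, and the labels give no replicate numbers for a further block.

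The 30 named genes were called in the same direction in each setting that keeps all 8 arrays (28 tested without dim probes). For the main fit and the averaged pairs the naming rule fixed that outcome. Of the 30, 29 were called from the 12 h arrays alone, 24 without the first and 27 without the second. From the 6 other arrays 0 of them were called. No called gene among those named changed sign. With 2 arrays per comparison and 4 residual degrees of freedom, the number of arrays limits the precision.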
